A study of Mus musculus with 6 samples.

Results

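The 27 genes described here encode enzymes of the mevalonate and sterol pathway, proteins that sense and move sterols, and the phosphatidate phosphatase Lpin2. They are among 22322 genes measured in epididymal white adipose tissue. They were taken by gene symbol, each matched 1 row of the expression table, and all 27 passed the filter on low counts. The list does not hold every enzyme of the pathway. RNA was sequenced in 6 libraries, 3 labelled CD44 KO and 3 labelled wild type, all from mice on a high fat diet for 17 weeks. CD44 is the main cell surface receptor that binds hyaluronan. The labels give the genotype only as CD44-KO or wild type, with no word on how the allele was made, the strain or the age of the mice. They do not say that each library came from a separate mouse, so p-values measure only the spread between these libraries. In bulk tissue, fewer cells of a type and less RNA per cell cannot be told apart.

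Cholesterol is built from acetyl-CoA. The first enzymes make mevalonate and then the isoprenoid farnesyl pyrophosphate, squalene synthase commits it to sterols, and a chain of enzymes turns squalene into lanosterol and lanosterol into cholesterol. The transcription factor SREBP2 raises the transcription of most of these genes when sterols in the endoplasmic reticulum are low. Its escort SCAP carries it to the Golgi, where 2 proteases release it, and the INSIG proteins hold SCAP back when sterols are plentiful. White fat holds a large share of the body's free cholesterol, most of it around the lipid droplets of adipocytes.

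The promoters of 5 of these genes are shown: Dhcr7 and Lss, which fell; Hmgcs1, which missed the adjusted threshold and is the 1 member whose window held the SREBP motif; and the sensors Insig1 and Insig2, whose libraries lay on opposite sides of wild type. The sequences are the 250 bases before the RefSeq start nearest the GENCODE start of the gene, in GRCm38.p6, written 5′ to 3′ on the strand of the gene. Capitals mark the SREBP motif TCACNCCAC and the NF-Y motif CCAAT on either strand, so that a CCAAT on the opposite strand reads ATTGG. The Dhcr7 window shown holds neither, so it has no capitals. The window of another RefSeq start of Dhcr7, at chr7:143829964-143830263, held 2 NF-Y motifs and is not shown. Windows of other RefSeq starts of Insig2, at chr1:121327629-121327928 and chr1:121327975-121328274, held neither motif and are not shown.
Hmgcs1 (chr13:119690101-119690350, plus strand): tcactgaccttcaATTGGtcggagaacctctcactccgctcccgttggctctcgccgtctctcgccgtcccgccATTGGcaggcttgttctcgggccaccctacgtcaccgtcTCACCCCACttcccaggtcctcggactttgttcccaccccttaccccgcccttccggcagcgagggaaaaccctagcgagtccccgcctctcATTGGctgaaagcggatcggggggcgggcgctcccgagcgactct
Dhcr7 (chr7:143822917-143823166, plus strand): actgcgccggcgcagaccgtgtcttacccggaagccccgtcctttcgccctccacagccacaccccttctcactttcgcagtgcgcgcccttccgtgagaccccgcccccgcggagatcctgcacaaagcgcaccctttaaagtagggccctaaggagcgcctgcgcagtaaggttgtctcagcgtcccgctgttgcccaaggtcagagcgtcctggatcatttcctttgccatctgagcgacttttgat
Lss (chr10:76531355-76531604, plus strand): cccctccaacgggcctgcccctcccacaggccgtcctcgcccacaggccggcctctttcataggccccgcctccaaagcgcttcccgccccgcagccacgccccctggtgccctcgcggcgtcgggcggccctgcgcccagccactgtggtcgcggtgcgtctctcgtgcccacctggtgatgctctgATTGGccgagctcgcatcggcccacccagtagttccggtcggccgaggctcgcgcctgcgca
Insig1 (chr5:28071162-28071411, plus strand): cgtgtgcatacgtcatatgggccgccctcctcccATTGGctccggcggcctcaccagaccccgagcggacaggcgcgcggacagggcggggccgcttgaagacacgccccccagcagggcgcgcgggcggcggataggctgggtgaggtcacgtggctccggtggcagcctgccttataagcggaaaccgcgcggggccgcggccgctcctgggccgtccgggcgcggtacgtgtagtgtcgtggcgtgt
Insig2 (chr1:121332590-121332839, minus strand): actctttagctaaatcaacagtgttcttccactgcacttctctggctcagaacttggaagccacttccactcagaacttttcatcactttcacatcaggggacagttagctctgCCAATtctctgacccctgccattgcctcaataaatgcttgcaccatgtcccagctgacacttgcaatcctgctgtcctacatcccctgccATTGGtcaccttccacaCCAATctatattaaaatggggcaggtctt

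RefSeq promoters, from 250 bases before to 50 after each start, were at hand for 23 of the 27 genes, and not for Fdps, Fdft1, Sqle and Stard4. A gene was counted as holding a motif if the window of any of its RefSeq starts held it. The SREBP motif TCACNCCAC stood in 1 of these 23 genes, Hmgcs1, or 4.35% (exact 95% interval 0.11% to 21.9%, counting error only), against 1.44% of all 27025 genes with a promoter there. The shorter form CACCCCAC, which overlaps it in Hmgcs1, stood in 2, Hmgcs1 and Acat2. The NF-Y motif CCAAT stood in 19 of the 23 (82.6%, exact 95% interval 61.2% to 95.05%), against 41.1% of all genes with a promoter. The E-box CACGTG stood in 6 of the 23, against 8.09% of all genes. A match of letters is not a binding site, and a window without a match says nothing of the factor.

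Total expected counts were 15543317 to 17790847 in CD44 KO and 16692760 to 18765009 in wild type libraries. Cd44 had 28, 50 and 34 rounded counts in CD44 KO replicates 1 to 3, against 3091, 10580 and 6000 in wild type replicates 1 to 3. The CD44 KO libraries differed in what else they held. Of 10 epididymis markers, Crisp1, Adam7 and Lcn5 stood at 6360, 325 and 105 FPKM (fragments per kilobase of transcript, scaled to library depth) in CD44 KO replicate 2 and at 3.15 or less in every other library. Their list sum was 6792 FPKM there, against 6.9 and 4.2 in CD44 KO replicates 1 and 3 and 0.63 to 1.52 in wild type. Lcn9 and Gpx5 were at 0 in all libraries. Of 8 liver markers, the sum was 299.8 FPKM in CD44 KO replicate 3 and 40.9 in replicate 2, against 3.83 in replicate 1 and 1.9 to 4.4 in wild type; Alb had 190.0 FPKM in replicate 3. All 15 macrophage markers had a negative log2 fold change, with sums of 3814, 201 and 765 FPKM in CD44 KO replicates 1 to 3, against 3791, 7765 and 6797 in wild type replicates 1 to 3. All 15 adipocyte markers had a positive one, with sums of 26926 to 47746 FPKM in CD44 KO and 8192 to 23022 in wild type. Of 10 mesothelial markers 1, Krt19, rose, where 1.74% of all genes did. Their sums were 43.4, 265 and 24.02 FPKM in CD44 KO and 6.12, 7.18 and 3.01 in wild type. Of 10 fibroblast markers 1 fell, where 0.882% of all genes did (sums of 563 to 1113 FPKM in CD44 KO and 1349 to 1420 in wild type). Of 8 endothelial markers none was called, where 2.62% of all genes were. At an unadjusted edgeR p under 0.05, 5 fibroblast (50%) and 3 macrophage markers (20%) were lower, where 14.7% of all genes were. All 10 mesothelial and 10 of the adipocyte markers were higher, where 16.3% were. Every CD44 KO library lay below every wild type library for 5 fibroblast (50%) and 7 macrophage markers (46.7%), where 18.1% of all genes did. Every one lay above for 10 mesothelial and 9 adipocyte markers, where 19.7% did. The endothelial markers had 0 in each count. The part of these cells in the results below was not tested. CD44 KO replicate 1 and wild type replicate 1 stood at nearly the same macrophage sum, and values of that pair are set side by side further on.

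Most of the 27 transcripts had lower values in CD44 KO fat, few of them past the adjusted threshold, and 1 enzyme, squalene synthase, was far higher. The 27 genes took 0.136%, 0.137% and 0.113% of all counts in CD44 KO replicates 1 to 3, against 0.201%, 0.165% and 0.176% in wild type replicates 1 to 3, so the groups did not overlap. By edgeR's quasi-likelihood test, adjusted by Benjamini-Hochberg across 13829 genes, 3 of the 27 were called, where 2.62% of all genes were. Of these, 2 fell, Dhcr7 and Lss, where 0.882% of all genes fell, and 1 rose, Fdft1, where 1.74% did. A larger number stood apart without passing the adjusted test. At an unadjusted p under 0.05, 12 of the 27 (44.4%) were lower, where 14.7% of all genes were, and 3 were higher, where 16.3% were, so 15 in all against 31% of genes in either direction. In 12 every CD44 KO library lay below every wild type library, where 18.1% of all genes did, and in 2, Fdft1 and Insig2, every one lay above, where 19.7% did; 37.8% of all genes had no overlap in either direction. The median log2 fold change of the 27 was -0.51, against 0.03 over all genes tested, and 20 of the 27 were negative.

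These calls rested on the libraries used. The median of the 27 lay between -0.60 and -0.39 in the 6 fits that each left out 1 library, so its sign did not depend on any 1 of them. When CD44 KO replicate 3 or either of wild type replicates 2 and 3 was dropped, none of the 27 was called. Calls over all genes nearly vanished in these fits too. In turn, 0.0141%, 0.0492% and 0% of all genes were called lower, and 0.0352%, 0.0141% and 0% higher. In those 3 fits 10, 10 and 9 of the 27 were lower by edgeR's unadjusted p under 0.05, where 8.39%, 9.18% and 7.81% of all genes were. At the same limit 3, 2 and 2 were higher, where 12.4%, 11.4% and 8.97% of all genes were. Without CD44 KO replicate 1, edgeR called 5 lower, Hmgcs1, Mvd and Insig1 besides Lss and Dhcr7, but the share of all genes called lower was also larger in that fit, at 9.65% against 0.882% with every library. Without CD44 KO replicate 2, the library with epididymis transcripts, it called Dhcr7 lower and Fdft1 higher, and the same pair without wild type replicate 1. Of all genes, 0.257% were called lower and 0.457% higher without CD44 KO replicate 2. Without wild type replicate 1 these shares were 0.435% and 1.74%. In the authors' deposited table, whose test differs, 8 of the 27 were lower and 2 higher at an adjusted p under 0.05, where 5.94% of its 22322 genes were lower and 6.07% higher. Those 22322 genes include ones that failed the low-count filter used here, which all 27 passed. The 2 shares are thus not on the base of 13829 genes used above.

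**Figure D1:**
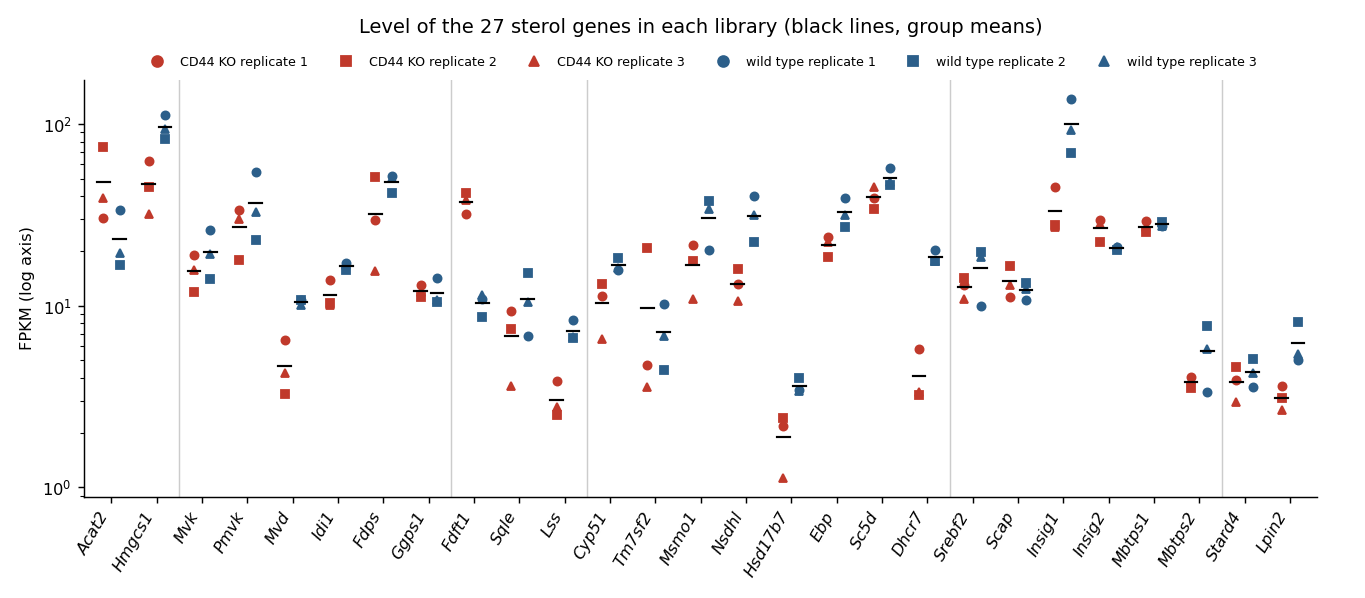
Level of each of the 27 genes in FPKM (log axis), in pathway order from acetyl-CoA on the left to the sensing and transfer genes on the right; grey lines part the role groups, points are libraries and black lines group means. The red CD44 KO points lie below the blue wild type points for Hmgcs1, Lss, Dhcr7 and Insig1, and above them for Fdft1.

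At the entry of the pathway, neither of the enzyme pair passed the test. Hmgcs1, the cytosolic HMG-CoA synthase, had 62.6, 45.1 and 32.1 FPKM in CD44 KO replicates 1 to 3, against 111.85, 83.2 and 94.3 in wild type replicates 1 to 3. Every CD44 KO library lay below the lowest wild type library. Its mean was 46.6 ± 15.3 FPKM in CD44 KO and 96.4 ± 14.4 in wild type (SD, n = 3 each), a difference that missed the threshold (log2 fold change -1.02, SE 0.27; edgeR adjusted p 0.0843, and 0.0361 without CD44 KO replicate 1). Acat2, the cytosolic thiolase of the first step, had 30.3, 74.9 and 39.2 FPKM in CD44 KO and 33.6, 16.8 and 19.5 in wild type. The highest value was in CD44 KO replicate 2, and CD44 KO replicate 1 lay below the highest wild type library. The log2 fold change of Acat2 was 1.12 (95% interval -0.11 to 2.34, edgeR adjusted p 0.148) and 0.59 without CD44 KO replicate 2. Expected counts of Acat2 were not whole in any of the 6 libraries, so reads were shared out between genes. Its close paralog Acat3 took 30.2, 135 and 91.5 expected counts in CD44 KO and 6.91, 8.15 and 3.44 in wild type, against 694 to 2980 for Acat2 itself.

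The enzymes from mevalonate to the isoprenoids had negative log2 fold changes for 5 of 6 members (median -0.43), and none of the 6 passed the test. By edgeR 2 of the 6 (33.3%), Mvd and Idi1, were lower at an unadjusted p under 0.05, where 14.7% of all genes were. At that limit 0 were higher, where 16.3% of all genes were. Mvd and Idi1 were also the 2 without overlap, where 18.1% of all genes were lower without overlap. Mvd, the decarboxylase that makes isopentenyl pyrophosphate, had 6.46, 3.26 and 4.25 FPKM in CD44 KO and 10.7, 10.79 and 10.15 in wild type. The wild type libraries were nearly equal, and every CD44 KO library was below them (edgeR adjusted p 0.0638 at a log2 fold change of -1.14, SE 0.25). Idi1, which isomerises that product, had 13.8, 10.4 and 10.1 FPKM in CD44 KO and 17.2, 15.8 and 16.8 in wild type (log2 fold change -0.46, edgeR adjusted p 0.118). Mvk and Pmvk, the kinases that phosphorylate mevalonate in turn, had log2 fold changes of -0.29 and -0.40 with overlapping libraries. For both, wild type replicate 1 was the highest library, at 26.2 FPKM for Mvk and 54.5 for Pmvk.

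Fdps, which makes farnesyl pyrophosphate, had 29.6, 51.0 and 15.6 FPKM in CD44 KO, against 51.8, 41.5 and 50.7 in wild type. CD44 KO replicates 1 and 3 were below all wild type libraries, while CD44 KO replicate 2 was among them. Its log2 fold change was -0.51 (SE 0.43, edgeR adjusted p 0.437) and -1.07 without CD44 KO replicate 2 (0.128). Ggps1, which makes the geranylgeranyl group that anchors small GTPases, had 12.95, 11.2 and 11.9 FPKM in CD44 KO and 14.2, 10.51 and 10.7 in wild type. Its interval of the log2 fold change ran from -0.21 to 0.58.

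Squalene synthase was the 1 member called higher. Fdft1 (ENSMUSG00000021273, minus strand of chromosome 14, 63145150 to 63179578 in GENCODE M21 on GRCm38) joins a pair of farnesyl pyrophosphates into squalene, the first step committed to sterols. It had 32.1, 41.7 and 38.5 FPKM in CD44 KO replicates 1 to 3, against 10.9, 8.68 and 11.4 in wild type replicates 1 to 3. The lowest CD44 KO library was far above the highest wild type library. Its mean was 37.4 ± 4.91 FPKM in CD44 KO and 10.4 ± 1.47 in wild type (SD, n = 3 each), which moved it to rank 4 of the 27 genes by FPKM in CD44 KO, against rank 21 in wild type. By edgeR's quasi-likelihood test it rose 3.69-fold, with a log2 fold change of 1.89 (SE 0.19, 95% interval 1.36 to 2.41) and an adjusted p of 0.0216. That adjusted p was 0.0812 without CD44 KO replicate 3 and 0.1 and 0.189 with wild type replicate 2 or 3 left out, and ran from 3.61e-15 to 0.189 over all alternatives. The log2 fold change ran from 1.59 to 2.01 over them.

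Fdft1 shares 774 exonic bases with Ctsb, the gene of the lysosomal protease cathepsin B, which lies on the opposite strand. Whether the counting used strand is not stated in the sources used here, but the expected counts show that reads were shared out between these genes. Ctsb was the more abundant, at 987, 218 and 376 FPKM in CD44 KO and 1060, 2080 and 1654 in wild type. It was lower where Fdft1 was higher (log2 fold change -1.58, edgeR adjusted p 0.135). Expected counts of Fdft1 were not whole in any of the 6 libraries. In each library the fractional parts of Fdft1 and Ctsb added up to a whole number. The expected counts were 1577.91 and 78016.09 in CD44 KO replicate 1, and 549.68 and 83889.32 in wild type replicate 1. Strand thus did not keep the reads of these genes apart, and reads in the shared bases cannot be assigned with certainty. How far this sharing bears on the Fdft1 difference was not tested. Annotated antisense genes also overlap Hmgcs1 by 557 and Lss by 381 exonic bases, and those genes were not analysed here.

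Of the next enzymes, Lss fell and Sqle did not pass the test. Sqle, the squalene epoxidase, had 9.32, 7.44 and 3.62 FPKM in CD44 KO and 6.84, 15.2 and 10.6 in wild type, with overlapping libraries (log2 fold change -0.63, 95% interval -1.81 to 0.55). Lss (plus strand of chromosome 10, 76531588 to 76557138), which closes squalene epoxide into lanosterol, had 3.87, 2.49 and 2.78 FPKM in CD44 KO and 8.34, 6.63 and 6.77 in wild type. All CD44 KO libraries were below all wild type libraries. Lss fell 2.31-fold, or -1.21 on the log2 scale (SE 0.20, edgeR adjusted p 0.0403). This call was lost in 5 of the 6 fits that left out 1 library, all but the one without CD44 KO replicate 1, with edgeR adjusted p of 0.0665 to 0.233, while the log2 fold change lay between -1.39 and -1.08 in the 6 fits. It was also lost with no filter on low counts (0.0501), and the adjusted p over all alternatives ran from 4.29e-05 to 0.366.

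The 8 enzymes from lanosterol to cholesterol were the most evenly lower group. Their summed level was 122, 126 and 104 FPKM in CD44 KO replicates 1 to 3, against 207, 178 and 189 in wild type replicates 1 to 3. Of the 8, 7 had negative log2 fold changes (median -0.74). In 6 (75%) every CD44 KO library was below every wild type library, where 18.1% of all genes were. At an unadjusted edgeR p under 0.05, 6 (75%) were lower, where 14.7% of all genes were. Past the adjusted threshold 1, Dhcr7, fell, where 0.882% of all genes did.

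Dhcr7 (plus strand of chromosome 7, 143823145 to 143848410), the reductase that makes cholesterol from its last precursor, showed the largest decrease of the 27 genes. It had 5.75, 3.23 and 3.37 FPKM in CD44 KO replicates 1 to 3, against 20.4, 17.6 and 17.8 in wild type replicates 1 to 3. The wild type libraries were close to each other and the highest CD44 KO library was far below them. The means were 4.12 ± 1.42 FPKM in CD44 KO and 18.6 ± 1.55 in wild type (SD, n = 3 each). By edgeR's quasi-likelihood test it fell 4.06-fold, with a log2 fold change of -2.02 (SE 0.22, 95% interval -2.64 to -1.4) and an adjusted p of 0.0255. With CD44 KO replicate 3, wild type replicate 2 or wild type replicate 3 left out in turn, the adjusted p was 0.0901, 0.104 and 0.189, and over all alternatives it ran from 1.44e-11 to 0.189. The log2 fold change ran from -2.28 to -1.63 over them.

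Nsdhl, a dehydrogenase that removes the methyl groups at carbon C4 of the sterol ring, had 13.2, 15.9 and 10.6 FPKM in CD44 KO and 40.2, 22.3 and 31.5 in wild type. The groups did not overlap (edgeR adjusted p 0.0658 at a log2 fold change of -1.19, SE 0.27). Msmo1, the methyl oxidase of the same demethylation, had 21.7, 17.5 and 10.9 FPKM in CD44 KO and 20.3, 37.6 and 34.0 in wild type. Its groups overlapped through wild type replicate 1 (log2 fold change -0.84, edgeR adjusted p 0.146). Hsd17b7, the ketoreductase of that step, was the least abundant of the 27, at 2.19, 2.4 and 1.13 FPKM in CD44 KO and 3.46, 4 and 3.4 in wild type (log2 fold change -0.86, edgeR adjusted p 0.129). All CD44 KO libraries were below all wild type libraries for Hsd17b7.

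Cyp51, the lanosterol demethylase, had 11.4, 13.2 and 6.55 FPKM in CD44 KO and 15.8, 18.4 and 16.1 in wild type, with no overlap (log2 fold change -0.64, edgeR adjusted p 0.174). Ebp, the sterol isomerase, had 23.8, 18.7 and 22.4 FPKM in CD44 KO and 39.3, 27.3 and 31.6 in wild type (log2 fold change -0.57, edgeR adjusted p 0.109). Sc5d, the sterol desaturase, had 39.4, 34.3 and 45.1 FPKM in CD44 KO and 57.7, 46.5 and 48.4 in wild type (log2 fold change -0.51, edgeR adjusted p 0.118). Both were lower in every CD44 KO library, by less than 1.5-fold each.

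Tm7sf2, a sterol reductase of the endoplasmic reticulum, was the exception in this group. It had 4.75, 20.9 and 3.58 FPKM in CD44 KO and 10.3, 4.46 and 6.78 in wild type. The single high value was in CD44 KO replicate 2, the library with 6792 FPKM of epididymis markers. Its log2 fold change was 0.57 (95% interval -1.57 to 2.70) and turned to -0.78 without that library. Tm7sf2 shares 532 exonic bases with Vps51 on the same strand, which stood at 12.1, 13.3 and 14.1 FPKM in CD44 KO and 14.5, 17.5 and 19.3 in wild type.

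**Figure D2:**
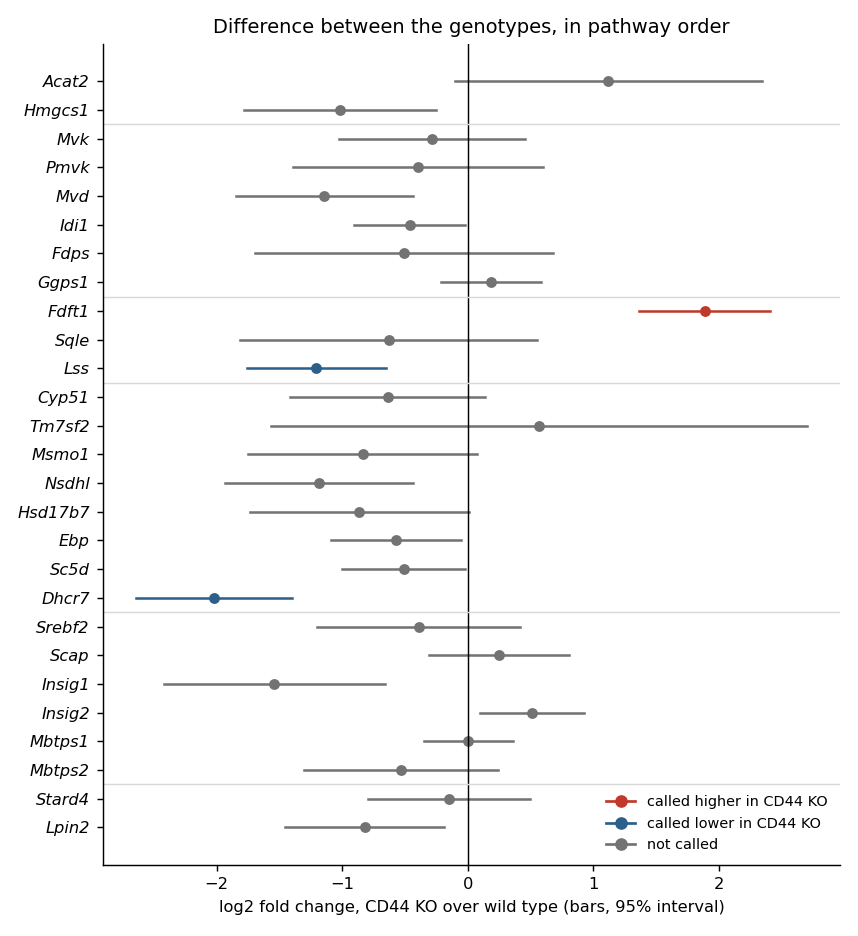
Log2 fold change of each gene, CD44 KO over wild type, with its 95% interval, in pathway order from top to bottom; grey lines part the role groups. Fdft1 at 1.89 is called higher, and Lss at -1.21 and Dhcr7 at -2.02 are called lower, while the 24 genes in grey did not pass the adjusted threshold.

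Among the regulators, none of the 6 passed the test, and the 2 sensors had libraries without overlap, in opposite directions. Over all genes 37.8% had no overlap in either direction. Insig1 (plus strand of chromosome 5, 28071363 to 28078662), itself a known target of SREBP2, had 44.9, 27.8 and 27.3 FPKM in CD44 KO replicates 1 to 3, against 137.6, 69.5 and 92.8 in wild type replicates 1 to 3. It was the most abundant of the 27 genes in wild type and rank 5 in CD44 KO. Its groups did not overlap (log2 fold change -1.54, SE 0.32, 95% interval -2.42 to -0.66), and its edgeR adjusted p of 0.0557 missed the threshold. It passed with DESeq2 (0.000169), with limma-voom (0.0496), with limma on log2(FPKM + 0.1) (0.0496) and without CD44 KO replicate 1 (edgeR, 0.0272). Insig2 (minus strand of chromosome 1, 121304353 to 121332589), the second retention protein, whose expression does not depend on SREBP in cultured cells, had 29.8, 22.6 and 28.1 FPKM in CD44 KO and 21.1, 20.4 and 21.2 in wild type. Every CD44 KO library was above every wild type library (edgeR adjusted p 0.0927 at a log2 fold change of 0.51, SE 0.15).

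The ratio of Insig1 to Insig2 FPKM was 1.51, 1.23 and 0.972 in CD44 KO replicates 1 to 3, against 6.52, 3.41 and 4.38 in wild type replicates 1 to 3. The transcripts were thus near parity in CD44 KO fat, and Insig1 was the more abundant in every wild type library. The mean log2 ratio was 0.29 ± 0.32 in CD44 KO and 2.20 ± 0.47 in wild type (SD, n = 3 each), a difference of -1.92. The two-sided exact permutation test gave p = 0.1, the smallest that 3 against 3 libraries allow. With Insig1 lower and Insig2 higher in every CD44 KO library, the test of their ratio could give no other value. It adds nothing to the separation of each gene. The difference lay between -2.13 and -1.67 in the 6 fits that left out 1 library.

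**Figure D3:**
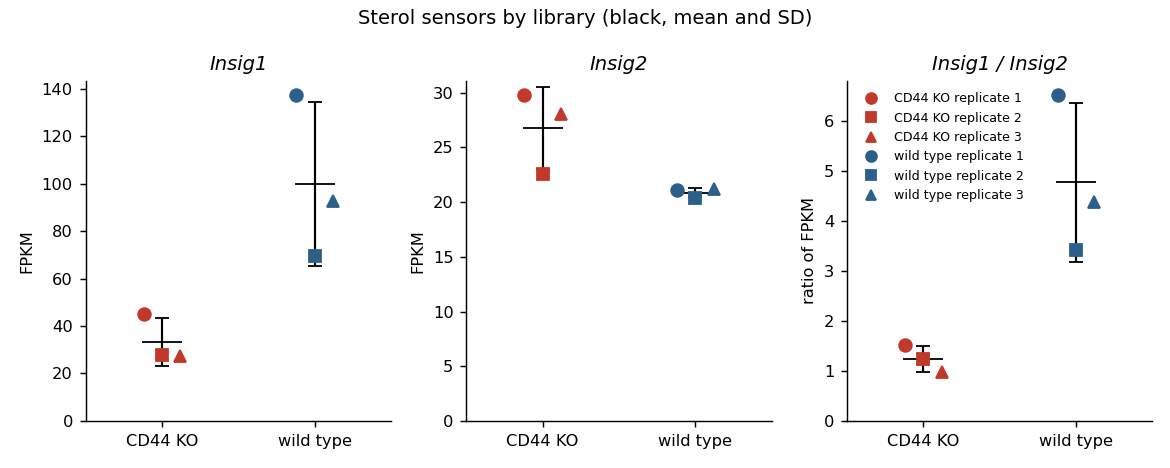
FPKM of Insig1 (left) and Insig2 (middle) and the ratio of the 2 values (right) in each library, with CD44 KO left of wild type; black marks are the mean and SD of 3 libraries. All CD44 KO libraries lie below wild type for Insig1 and above it for Insig2, and the ratio is 0.972 to 1.51 there against 3.41 to 6.52 in wild type.

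Srebf2, the gene of SREBP2, had 12.9, 14.3 and 10.9 FPKM in CD44 KO and 9.99, 19.8 and 18.6 in wild type. Wild type replicate 1 was the lowest of all 6 libraries, so the groups overlapped (log2 fold change -0.39, 95% interval -1.20 to 0.42). Scap, the escort, had 11.2, 16.6 and 13.1 FPKM in CD44 KO and 10.8, 13.4 and 12.3 in wild type (log2 fold change 0.25, 95% interval -0.31 to 0.81). Mbtps1, the Golgi protease of the first cut, was the steadiest of the 27, at 25.6 to 29.2 FPKM in CD44 KO and 27.6 to 28.9 in wild type. The interval of its log2 fold change was -0.35 to 0.36. Mbtps2, the protease of the second cut, had 4.05, 3.51 and 3.88 FPKM in CD44 KO and 3.37, 7.72 and 5.82 in wild type (log2 fold change -0.53, 95% interval -1.31 to 0.24). It shares 2867 exonic bases with Yy2 on the same strand, which was at 1.09 FPKM or less in every library.

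Stard4, a soluble carrier that moves cholesterol between membranes, had 3.91, 4.61 and 2.94 FPKM in CD44 KO and 3.56, 5.12 and 4.27 in wild type, with overlapping libraries (log2 fold change -0.15, 95% interval -0.80 to 0.49). Lpin2, a phosphatidate phosphatase of glycerolipid synthesis, had 3.61, 3.09 and 2.66 FPKM in CD44 KO and 5.01, 8.16 and 5.45 in wild type. Every CD44 KO library of Lpin2 was below every wild type library (edgeR adjusted p 0.0877 at a log2 fold change of -0.82, SE 0.23).

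Lower values were also seen between the 2 libraries of like macrophage sums. CD44 KO replicate 1 and wild type replicate 1 had macrophage sums of 3814 and 3791 FPKM and epididymis and liver sums under 7 FPKM. With 1 library a side these are levels with no test. Dhcr7 stood at 5.75 FPKM in CD44 KO replicate 1 and at 20.4 in wild type replicate 1, a ratio of 0.282. Insig1 had a ratio of 0.327, Nsdhl of 0.329, Lss of 0.464, Hmgcs1 of 0.56 and Mvd of 0.604 in this pair, and Fdft1 had a ratio of 2.93. In all, 18 of the 27 ratios (66.7%) were below 1, as were 49.6% of those of all genes tested that had a value in wild type replicate 1. Among members with a negative log2 fold change over all libraries, Sqle at 1.36, Srebf2 at 1.295, Mbtps2 at 1.202, Stard4 at 1.10 and Msmo1 at 1.07 were not lower in this pair. Other marker sums of the pair differed. The adipocyte sum was 34822 FPKM in CD44 KO replicate 1 and 23022 in wild type replicate 1. In the same order, the mesothelial sums were 43.4 and 6.12 FPKM, the endothelial sums 291 and 456, and the fibroblast sums 1113 and 1349. With CD44 KO replicate 1 alone against all wild type libraries, edgeR called none of the 27, had 6 lower and 1 higher by an unadjusted p under 0.05 (4.21% and 6.09% of all genes), and gave log2 fold changes of -1.63 for Dhcr7 and 1.59 for Fdft1. That fit assumes that the lone library varies like the wild type group.

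**Figure D4:**
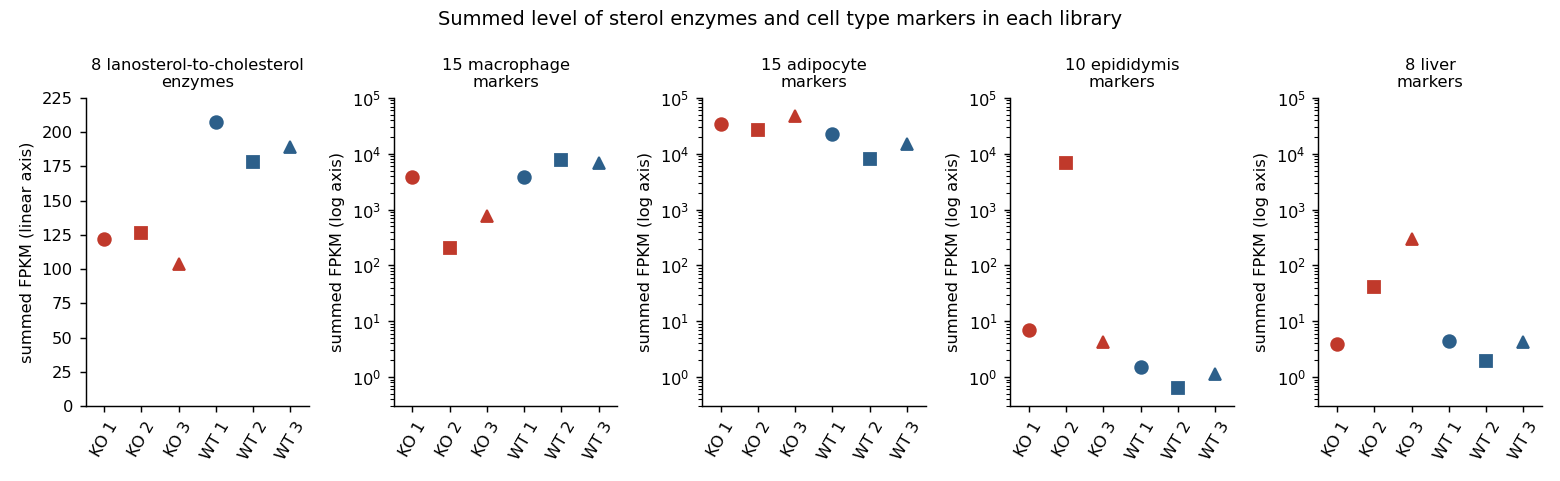
Summed FPKM in each library (KO, CD44 KO; WT, wild type) of the 8 enzymes from lanosterol to cholesterol on a linear axis and of 4 marker lists on a shared log axis. The enzyme sums are 104 to 126 in CD44 KO and 178 to 207 in wild type, while the epididymis sum is high in CD44 KO replicate 2, the liver sum in CD44 KO replicates 2 and 3, and the macrophage sums of CD44 KO replicate 1 and wild type replicate 1 are nearly equal.

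Other genes tied to the pathway did not share one direction. Of 18 SREBP target genes of fatty acid and acetyl-CoA supply, 1 rose and 0 fell (median log2 fold change -0.04). Over all genes 1.74% rose and 0.882% fell. At an unadjusted edgeR p under 0.05, 7 were higher and 3 (16.7%) lower, where 16.3% and 14.7% of all genes were. The one that rose was Aacs, which makes acetoacetyl-CoA from acetoacetate for sterol and fatty acid synthesis. It had 60.3, 63.4 and 90.8 FPKM in CD44 KO and 26.2, 13.2 and 14.8 in wild type (edgeR adjusted p 0.0395 at a log2 fold change of 2.03, SE 0.32). Srebf1, the gene of the SREBP1 factors that favour fatty acid genes, had 78.8, 85.9 and 114.1 FPKM in CD44 KO and 49.2, 28.3 and 29.7 in wild type. Its libraries did not overlap (log2 fold change 1.404, edgeR adjusted p 0.0557), whereas those of Srebf2 did, and whether the 2 genes differ in response was not tested. Lpin1, the lipin abundant in fat, had a log2 fold change of 1.48 (edgeR adjusted p 0.0537). Tmem97, a sterol-regulated protein of the endoplasmic reticulum and lysosome, was lower in every CD44 KO library, at 12.7, 9.24 and 8.05 FPKM, against 24.2, 17.6 and 25.3 in wild type (log2 fold change -1.11, edgeR adjusted p 0.0557).

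Of 17 genes that use isoprenoids outside sterol synthesis, edgeR called 0, where 2.62% of all genes were called (median log2 fold change 0.11). At an unadjusted edgeR p under 0.05, 3 (17.6%) were lower and 1 higher, where 14.7% and 16.3% of all genes were. The lowest p belonged to Nus1, a subunit of the enzyme that builds dolichol, at 21.7, 17.6 and 14.5 FPKM in CD44 KO and 33.3, 36.7 and 38.8 in wild type (log2 fold change -0.97, edgeR adjusted p 0.0522). Srd5a3, which finishes dolichol, stood at -0.86 and Pdss2, a subunit of the enzyme for the ubiquinone side chain, at 0.71 on the log2 fold change scale. Of 18 genes of sterol-regulated degradation and SREBP trafficking, edgeR called 0 (median -0.08). At an unadjusted edgeR p under 0.05, 1 (5.56%) was lower and 1 higher, where 14.7% and 16.3% of all genes were. The lowest p was that of Aup1, a recruiter of ubiquitin enzymes to the endoplasmic reticulum (log2 fold change -0.60, edgeR adjusted p 0.0739).

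Of 11 oxysterol and LXR genes, 1 rose and 0 fell, where 1.74% and 0.882% of all genes did (median log2 fold change 0.08). Osbpl1a, an oxysterol-binding protein gene, had 22.02, 35.4 and 41.1 FPKM in CD44 KO and 13.1, 9.12 and 9.63 in wild type (log2 fold change 1.54, edgeR adjusted p 0.0397). Cyp27a1, which makes an oxysterol from cholesterol, and Abcg1, which exports sterols, missed the threshold, at log2 fold changes of 0.73 (edgeR adjusted p 0.0609) and -1.12 (edgeR adjusted p 0.0749). Abcg1 was 27.4, 12.5 and 17.2 FPKM in CD44 KO and 28.5, 55.3 and 34.7 in wild type. Its values in CD44 KO replicate 1 and wild type replicate 1 were near each other, with 1 library a side. The cause was not tested.

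**Figure D5:**
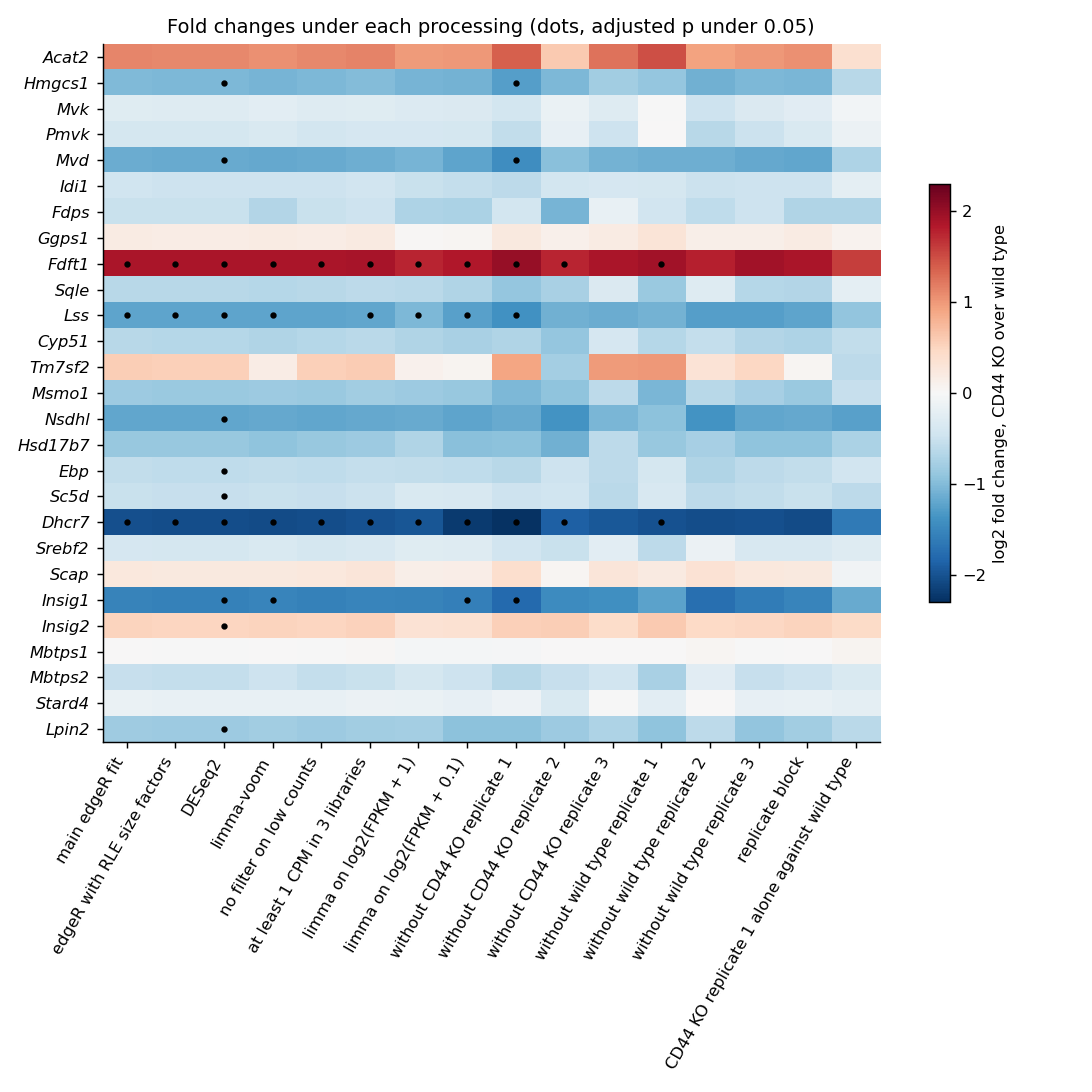
Log2 fold change of each gene, CD44 KO over wild type, under the main edgeR fit and 15 other settings, from blue (lower in CD44 KO) to red (higher); dots mark an adjusted p under 0.05. Fdft1 stays red and Dhcr7 blue in every column, at 1.59 to 2.01 and -2.28 to -1.63, while the dots vanish in the fits without CD44 KO replicate 3, wild type replicate 2 or wild type replicate 3, with the replicate block and with CD44 KO replicate 1 alone.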

How the data were processed

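RNA of epididymal fat from 3 CD44 KO and 3 wild type samples was measured by oligo(dT)-selected RNA sequencing, per the labels' protocols. Tools listed in the submitters' processing notes, with no roles, are DESeq2, HISAT2, RSEM and StringTie 1.3.1. The sources used here do not state the build, annotation or strand setting. Only the expected counts of Fdft1 and Ctsb bear on strand, as described above. The authors deposited expected counts, not scaled, and FPKM. The authors' comparison table repeats the rounded counts (0 genes differ). It gives log2 ratios of the groups and p-values, raw and adjusted, both computed by the authors before deposit.

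Rounded expected counts went into edgeR 4.0.16 (R 4.3.3): filterByExpr, TMM, robust quasi-likelihood fit, Benjamini-Hochberg adjustment over 13829 genes, threshold 0.05. The procedure was tested on simulated data. SE is the absolute log2 fold change over the square root of F; 95% intervals use it with 4 degrees of freedom, while the test moderates them. Overlap of libraries was judged on TMM-scaled CPM. Alternatives used limma 3.58.1 and DESeq2 1.42.0. Positions are from GENCODE M21 (GRCm38), matched by identifier. Members, lists and alternatives were chosen with earlier results of these data known. All 27 members are named; of the 4 pathway lists the called genes and up to 3 of lowest p; of marker lists up to 3 most abundant, and some others after their values were seen. The labels share replicate numbers without saying that they pair samples. Intervals of shares cover counting error only.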

Additional observations from a re-analysis of the deposited data

How the results depend on the processing

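Of the 27 genes, edgeR called 1 higher and 2 lower, and DESeq2 called 2 and 9; over all genes these counts were 240 and 122 by edgeR and 1463 and 1463 by DESeq2. With no filter on low counts, 1 of the 27 was called lower, and 145 genes were called higher. With limma on log2(FPKM + 1) and log2(FPKM + 0.1), 203 and 206 genes were called lower. Leaving out 1 library gave 0 to 1 of the 27 higher, 0 to 5 lower, 0 to 1007 genes higher and 0 to 1363 lower. With CD44 KO replicate 1 alone against wild type, an alternative chosen after seeing the data, 0 of the 27 were called in either direction, and 10 genes higher and 2 lower.

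With the replicate number as a block, edgeR called 0 of the 27 and 0 genes in each direction, with 2 of the 27 higher and 11 lower and 2805 genes at an unadjusted p under 0.05. Same-numbered libraries did not deviate together (correlations across genes of -0.321, -0.218 and -0.0176 for numbers 1 to 3), and no library correlated best with its own number. Whether same-numbered libraries shared handling cannot be told from these correlations, as the libraries also differed widely in their marker sums.

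The sign of a log2 fold change turned for Tm7sf2 without CD44 KO replicate 2 (-0.78) and with CD44 KO replicate 1 alone (-0.59), for Scap with CD44 KO replicate 1 alone (-0.086), for Pmvk without wild type replicate 1 (0.0107, the highest with 1 library left out, lowest -0.646), for Stard4 without wild type replicate 2 (0.00176, highest; lowest -0.353) and for Mbtps1 in 7 settings. Mbtps1 stood at -0.0103 with RLE size factors and with DESeq2 (-0.0103), -0.00734 with no filter, -0.0418 and -0.0432 with limma on log2(FPKM + 1) and log2(FPKM + 0.1), and between -0.0271 and 0.0368 with 1 library left out. With 1 library left out Tm7sf2 ran from -0.78 to 0.991. None of these genes was called in any setting. The other 22 genes kept their direction in all 15 alternatives, and the cause of the changes was not tested. The median of all genes moved by less than 0.1 with RLE size factors, DESeq2 or FPKM.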
